A study of Mus musculus with 8 samples.

Results

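The genes described here are 4 transporters, Slc2a1, Slc2a3, Slc16a1, and Slc16a3, taken by name from the 20170 genes of a single-cell RNA sequencing study of mouse splenic T cells. They were chosen by their levels in stimulated SDHA-KO and WT cells, already known from these data, so that difference is described for them without a test. Slc2a1 and Slc2a3 encode the facilitative glucose transporters GLUT1 and GLUT3, which let glucose down its gradient into the cell. Slc16a1 and Slc16a3 encode the monocarboxylate transporters MCT1 and MCT4, which carry lactate and pyruvate together with a proton across the plasma membrane. MCT4 is the form best known for lactate export from highly glycolytic cells. Resting T cells take up little glucose, and activated T cells raise glucose uptake and release much of the carbon as lactate. SDHA is the catalytic flavoprotein subunit of succinate dehydrogenase, mitochondrial complex II.

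T cells were purified from spleens by magnetic separation and were cultured alone (unstimulated), or for 48 hours with soluble antibodies to CD3 at 5 μg/mL and to CD28 at 2.5 μg/mL (stimulated). SDHA-KO cells came from Sdha fl/fl CD4-Cre mice, in which Cre is driven by regulatory sequence of Cd4. The sample labels call the control cells WT, without giving alleles. The study used mice of 8 to 12 weeks for its experiments. WT and SDHA-KO cells were sequenced in both states with 2 libraries each, 8 in all, and the labels do not state whether the 2 libraries of a group came from different mice. All p values therefore measure the spread between these libraries, which may be technical. Unique molecular identifiers (UMIs), which count captured mRNA molecules, were summed per library over the cells of each deposited class, CD4 or CD8. Levels are given as counts per 1000000 UMIs (CPM) after trimmed mean of M values (TMM) scaling. The scaling factors were set within each class, so CPM of CD4 and CD8 cells are not on a common scale. Raw CPM, used for parts of a class and where stated, has no such scaling and counts all UMIs of the cells named.

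The 12846 cells gave from 3640136 to 34087903 UMIs per library and class. Summed Cd8a and Cd8b1 lay between 187 and 1420 CPM in CD8 cells and between 16.5 and 45.5 CPM in CD4 cells. Cd4 lay between 90.7 and 666 CPM in CD4 cells and between 1.43 and 15 CPM in CD8 cells. In CD4 cells it was at 168 and 169 CPM in unstimulated WT against 598 and 666 CPM in unstimulated SDHA-KO. After stimulation it was at 90.7 and 95.5 CPM in WT against 145 and 140 CPM in SDHA-KO. A Cd4 UMI without a Cd8a, Cd8b1, or Trdc UMI was seen in 55.8% and 56.8% of unstimulated WT CD4 cells. In unstimulated SDHA-KO CD4 cells the shares were 82.1% and 79.2%. Stimulated CD4 cells gave 56.7% and 56% in WT and 56% and 59.3% in SDHA-KO. The class name was least supported by its markers in stimulated SDHA-KO CD8 cells, where Cd8b1 was seen in 51.5% and 55.1% of cells and Trdc, a gene of gamma-delta T cells, in 59.1% and 56.1%. Only 33.1% and 37.1% of them had a Cd8a or Cd8b1 UMI and no Cd4 or Trdc UMI, against 87.2% and 85% of stimulated WT CD8 cells. Sdha, the targeted gene, was lower in SDHA-KO cells of every kind but was not lost. In CD4 cells it was at 101 and 100.1 CPM in unstimulated WT against 49.8 and 49.4 CPM in unstimulated SDHA-KO, and at 74.0 and 73.1 CPM in stimulated WT against 26.5 and 26.4 CPM in stimulated SDHA-KO. In CD8 cells the corresponding levels of Sdha were 91.4 and 95.7 against 39.0 and 37.6 CPM, and 76.2 and 74.9 against 53.2 and 50.4 CPM. Whether the counted 3′ end lies outside the deleted part was not examined here. Of 12823 distinct cell barcodes, 23 occurred in more than 1 library.

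Slc2a1 lies at chr4:119108711-119137983 on the plus strand, Slc16a1 at chr3:104638668-104658462 on the plus strand, Slc16a3 at chr11:120948480-120960868 on the plus strand, and Slc2a3 at chr6:122727809-122801640 on the minus strand (GENCODE M21, GRCm38, the assembly also called mm10). All are protein coding. Because the 4 transcripts rose together on stimulation, sequence before the RefSeq gene start is shown for the 3 genes matched in the promoter table (GRCm38.p6, plus strand), to compare their short motifs. Capitals mark ACGTG and GCGTG, the core letters of a hypoxia response element, or their reverse complements CACGT and CACGC. Windows of 250 bases before the RefSeq start were searched. The RefSeq starts (119108745 for Slc2a1, 104638664 for Slc16a1, and 120949067 for Slc16a3) are not the GENCODE gene starts given above, and the Slc16a3 window lies inside its GENCODE gene. Printed is the part before the first GENCODE exon in the window, at chr4:119108495-119108710, chr3:104638414-104638663, and chr11:120948817-120949052, in that order, which leaves out the last 34 bases for Slc2a1 and the last 14 for Slc16a3.
Slc2a1: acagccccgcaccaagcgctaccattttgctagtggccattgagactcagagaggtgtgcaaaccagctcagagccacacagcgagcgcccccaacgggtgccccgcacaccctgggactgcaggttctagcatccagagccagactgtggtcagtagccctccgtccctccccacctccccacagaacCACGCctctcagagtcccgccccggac
Slc16a1: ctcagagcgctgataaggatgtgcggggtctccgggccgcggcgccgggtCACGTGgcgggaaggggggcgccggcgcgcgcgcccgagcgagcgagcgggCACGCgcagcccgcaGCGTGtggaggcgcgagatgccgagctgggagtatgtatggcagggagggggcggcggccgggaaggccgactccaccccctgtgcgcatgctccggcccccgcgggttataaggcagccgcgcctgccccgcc
Slc16a3: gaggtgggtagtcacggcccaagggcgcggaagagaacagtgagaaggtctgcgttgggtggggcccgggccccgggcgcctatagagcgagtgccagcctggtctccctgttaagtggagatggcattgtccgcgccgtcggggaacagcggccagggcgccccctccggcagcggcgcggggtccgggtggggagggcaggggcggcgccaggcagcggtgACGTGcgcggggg
The Slc2a1 window held 1 ACGTG, 36 bases before the RefSeq start and reaching into the part not printed, and 1 CACGC. In the Slc16a3 window 2 copies of ACGTG began 27 and 14 bases before the RefSeq start, the latter in the part not printed. In Slc16a1, ACGTG and CACGT overlapped in CACGTG, which begins 200 bases before the start and is also the core of an E-box, and 1 CACGC and 1 GCGTG stood between it and the start. Among 32851 promoter windows of the same length, 16.6% held ACGTG, 28.2% held GCGTG, 6.02% held CACGTG, and 38.6% held ACGTG or GCGTG, on either strand. A match describes letters in these windows and no binding was measured.

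At rest the genes were low. Slc2a1 was at 26.6 and 33.6 CPM in unstimulated WT CD4 cells and at 31.7 and 28.3 CPM in unstimulated WT CD8 cells. Slc2a3 was at 27.1 and 27.9 CPM in WT CD4 cells and at 29.7 and 30.6 CPM in WT CD8 cells. Slc16a1 was at 14.9 and 11.1 CPM in WT CD4 cells and at 20.9 and 28.6 CPM in WT CD8 cells. Thus for both glucose transporters the ranges of the resting classes lay close together, while both CD8 values of Slc16a1 lay above both CD4 values. On raw CPM the order of Slc16a1 was kept, with 13.7 and 10.2 in WT CD4 cells and 17.5 and 23.7 in WT CD8 cells. Slc16a3 had 6 and 9 UMIs in the 2 unstimulated WT CD4 libraries (0.962 and 1.35 CPM), and 0 and 3 UMIs in the 2 unstimulated WT CD8 libraries. It was thus close to absent from resting cells at this depth, and the CD8 library with 0 UMIs of 4170982 allows up to 3.

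**Figure D1:**
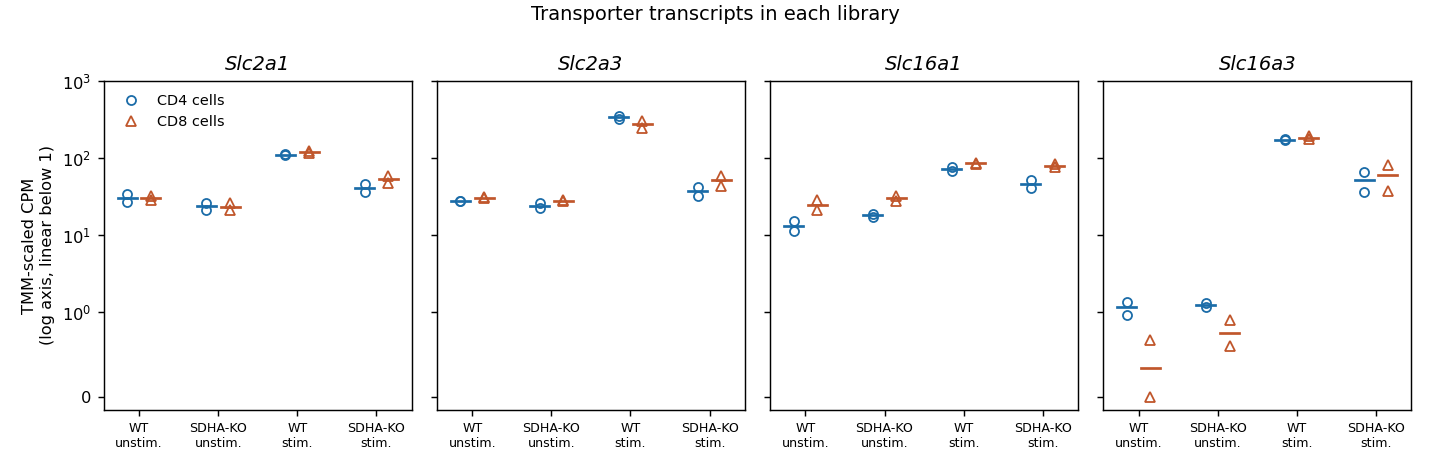
CPM after TMM scaling (log axis, linear below 1) of each transporter gene in the 4 groups, with circles for the CD4 sum and triangles for the CD8 sum of each library and a bar at the mean of 2 libraries. Stimulated WT sums stand highest for Slc2a1, Slc2a3, and Slc16a3 in both classes, and resting Slc16a3 lies between 0 and 1.35 CPM.

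Among resting subsets named by the deposited annotation, regulatory T cells (Treg) of CD4 class held more Slc2a3 than naive CD4 cells. In WT Treg it was at 40.2 and 52.9 raw CPM, against 23.9 and 22.6 in WT naive CD4 cells, and in SDHA-KO Treg at 55.8 and 35.5, against 19.2 and 18.5 in SDHA-KO naive CD4 cells. In each library the Treg value was thus above the naive value. Resting CD4 effector memory cells (Tem) were at 18.6 and 30.5 raw CPM of Slc2a3 in WT and at 43.3 and 36.1 in SDHA-KO, so that Tem lay below Treg in WT and within the Treg range in SDHA-KO cells. Slc16a1 showed the opposite order, with 6.19 and 7.56 raw CPM in WT Treg against 14.0 and 10.1 in WT naive CD4 cells. These Treg values rest on only 4 and 4 UMIs. In resting CD8 central memory cells (Tcm), Slc2a3 was at 37.9 and 32.2 in WT and at 44.5 and 46.4 in SDHA-KO, against 22.5 and 24.4 and 19.0 and 22.1 in naive CD8 cells. These subsets hold from 51 to 1137 cells per library and their values are descriptions, with no test between subsets of the same libraries.

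Stimulation raised all 4 genes in WT cells of both classes. The tests of stimulation, here and for SDHA-KO cells below, use the stimulated values by which the genes were chosen. The p values of the 4 genes on stimulation are therefore not independent of that choice. In stimulated WT CD4 cells Slc2a3 reached 320.8 and 351.8 CPM, Slc2a1 107.7 and 112.2 CPM, Slc16a1 75.0 and 67.5 CPM, and Slc16a3 175.6 and 168.8 CPM. No stimulated value overlapped an unstimulated one. Slc2a3 rose 12.2-fold (log2 fold change 3.61 ± 0.14 SE, adjusted p = 1.7e-09, edgeR quasi-likelihood test). Slc16a1 rose 5.50-fold (log2 2.46 ± 0.16, adjusted p = 8.7e-08) and Slc2a1 3.65-fold (log2 1.87 ± 0.14, adjusted p = 4.3e-07). Of the 14264 genes tested in CD4 cells, 66.3% were called in this comparison, 36.2% higher and 30.1% lower. For Slc16a3 the UMIs per total gave a ratio of 172 (95% exact interval 105 to 308, counting error only), and its edgeR adjusted p was 2.3e-08.

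In WT CD8 cells the stimulated levels were 245.5 and 304.5 CPM for Slc2a3, 114.5 and 121.9 CPM for Slc2a1, 86.7 and 83.6 CPM for Slc16a1, and 177.4 and 189.9 CPM for Slc16a3. Again no stimulated library overlapped an unstimulated one. Slc2a3 rose 9.11-fold (log2 3.19 ± 0.16, adjusted p = 1.6e-08), Slc2a1 3.96-fold (log2 1.98 ± 0.13, adjusted p = 1.3e-07), and Slc16a1 3.40-fold (log2 1.76 ± 0.13, adjusted p = 3.0e-07). Of the 13095 genes tested in CD8 cells, 65.7% were called, 35.5% higher and 30.3% lower. Slc16a3 had 3 UMIs over both resting WT CD8 libraries, and its ratio of 683 has a counting interval of 234 to 3310 (adjusted p = 3.3e-07).

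In SDHA-KO cells the same genes also rose on stimulation, and the fitted folds were smaller than those in WT cells for each gene and class. The difference between the genotypes' folds was not tested as such, and both sets of folds are given side by side. In CD4 cells Slc2a3 went from 25.6 and 22.3 CPM to 42.0 and 32.1 CPM, a 1.55-fold rise (log2 0.63 ± 0.13, adjusted p = 0.00129). The lower stimulated value stood above the higher resting one. Slc2a1 went from 20.96 and 26.0 CPM to 45.3 and 35.8 CPM (1.72-fold, log2 0.78 ± 0.14, adjusted p = 0.00045). Slc16a1 went from 17.0 and 18.7 CPM to 40.7 and 50.9 CPM (2.56-fold, log2 1.36 ± 0.14, adjusted p = 4.4e-06). In this comparison 69.8% of genes were called, 36.6% higher and 33.2% lower. Slc16a3, from 12 UMIs in each resting library, reached 66.4 and 36.5 CPM. Its UMI ratio was 48.1 (interval 32.3 to 75.2, adjusted p = 2.0e-07).

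SDHA-KO CD8 cells went from 27.6 and 28.1 CPM to 58.6 and 43.3 CPM of Slc2a3 (1.84-fold, log2 0.88 ± 0.18, adjusted p = 0.00135). Slc2a1 went from 20.7 and 25.8 CPM to 58.3 and 47.1 CPM (2.28-fold, log2 1.19 ± 0.15, adjusted p = 2.5e-05). Slc16a1 rose from 27.3 and 32.0 CPM to 75.3 and 83.6 CPM (2.68-fold, log2 1.42 ± 0.13, adjusted p = 1.9e-06). Here 68.2% of genes were called, 37.2% higher and 30.9% lower. Slc16a3 rose from 3 and 2 UMIs to 82.0 and 37.5 CPM, a UMI ratio of 103 (interval 44.0 to 317, adjusted p = 1.3e-05). In both classes stimulated SDHA-KO replicate 1 thus held more Slc16a3 than replicate 2, a wider gap than between the WT libraries.

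Before stimulation no transporter gene passed the test between SDHA-KO and WT in either class, by edgeR, DESeq2, or limma. By edgeR 1.1% of all genes were called in CD4 cells (0.526% higher, 0.575% lower) and 0.947% in CD8 cells (0.283% higher, 0.664% lower). In CD4 cells the log2 fold change was -0.35 ± 0.16 for Slc2a1 (adjusted p = 0.320), -0.20 ± 0.16 for Slc2a3 (adjusted p = 0.563), and 0.47 ± 0.18 for Slc16a1 (adjusted p = 0.248). Without adjustment 1 of the 4 genes in CD4 cells, Slc16a1, and 0 of 4 in CD8 cells would pass at 0.05. At that threshold 2282 of all 14264 genes tested in CD4 cells and 1852 of 13095 in CD8 cells would pass. In CD4 cells Slc16a1 was at 17.0 and 18.7 CPM in SDHA-KO against 14.9 and 11.1 CPM in WT. In CD8 cells the log2 fold change was -0.36 ± 0.18 for Slc2a1, -0.12 ± 0.22 for Slc2a3, and 0.24 ± 0.17 for Slc16a1 (adjusted p from 0.397 to 0.890). Slc16a3 had a ratio of UMIs per total, SDHA-KO over WT, of 1.06 in CD4 cells (interval 0.534 to 2.17) and of 2.18 in CD8 cells (interval 0.424 to 14.0). Trdc was seen in 19.7% and 15.2% of unstimulated SDHA-KO CD8 cells against 3.9% and 3.41% in WT. In those without a Trdc UMI, Slc2a1 was at 16.2 and 21.3 raw CPM in SDHA-KO against 26.3 and 22.9 in WT. There Slc2a3 was at 25.0 and 24.5 against 25.3 and 24.0, and Slc16a1 at 25.4 and 33.9 against 17.4 and 23.5. These parts were not tested.

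After stimulation the genotypes differed most in Slc2a3. In CD4 cells it was at 42.0 and 32.1 CPM in SDHA-KO against 320.8 and 351.8 CPM in WT, a mean 9.08 times higher in WT (log2 fold change -3.19 ± 0.12). In CD8 cells it was at 58.6 and 43.3 CPM against 245.5 and 304.5 CPM, a mean 5.40 times higher in WT (log2 -2.43 ± 0.13). The lowest WT library thus held several times the level of the highest SDHA-KO library in both classes. Slc2a1 was at 45.3 and 35.8 CPM against 107.7 and 112.2 CPM in CD4 cells (log2 -1.44 ± 0.12) and at 58.3 and 47.1 CPM against 114.5 and 121.9 CPM in CD8 cells (log2 -1.16 ± 0.10). It lay above its resting SDHA-KO level in both classes.

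The lactate transporters parted. Slc16a3 was lower in stimulated SDHA-KO cells, with 66.4 and 36.5 CPM against 175.6 and 168.8 CPM in CD4 cells (log2 -1.75 ± 0.20) and 82.0 and 37.5 CPM against 177.4 and 189.9 CPM in CD8 cells (log2 -1.61 ± 0.25). The size of this difference rested on which SDHA-KO library was used, with -2.22 in CD4 and -2.30 in CD8 cells without stimulated SDHA-KO replicate 1, and -1.36 and -1.18 without replicate 2. Slc16a1 was lower in SDHA-KO CD4 cells, with 40.7 and 50.9 CPM against 75.0 and 67.5 CPM (log2 -0.64 ± 0.12). In CD8 cells its libraries met, with 75.3 and 83.6 CPM in SDHA-KO against 86.7 and 83.6 CPM in WT (log2 -0.10 ± 0.10). As background, edgeR called 43.2% of all CD4 genes between stimulated SDHA-KO and WT, 22.7% higher and 20.5% lower. For CD8 it called 50.4%, 26.8% higher and 23.5% lower. The median over all genes tested was -0.001 and -0.010 (log2) for CD4 and CD8. Fewer expressing cells and less RNA per cell cannot be told apart in such sums, and the shares of cells with a UMI are given next.

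Each cell was thinned to 5000 UMIs so that libraries of unequal depth could be compared. In thinned CD4 cells Slc2a3 was seen in 70.6% and 76.0% of stimulated WT cells and in 17.9% and 14.4% of stimulated SDHA-KO cells. Before thinning these shares were 91.2% and 94.0%, and 47.5% and 44.7%. In thinned CD8 cells Slc2a3 was seen in 67.2% and 71.9% of WT and 25.8% and 25.6% of SDHA-KO cells. The shares of SDHA-KO cells were thus below those of WT cells and above the 8.25% to 10.7% of resting cells. Slc16a3 was seen in 62.3% and 64.9% of thinned WT CD4 cells against 28.3% and 15.9% of SDHA-KO cells, and Slc2a1 in 48.6% and 49.7% against 25.4% and 19.3%. Slc16a1 was seen in 38.4% and 35.2% against 23.4% and 25.0% of CD4 cells, and in 45.8% and 46.2% against 42.2% and 45.1% of CD8 cells. For comparison, Cd8b1 was seen in 9.50% to 11% of thinned stimulated CD4 cells and in 5.57% to 6.30% of thinned resting CD4 cells, which should lack it. Before thinning the Cd8b1 shares were 24.8% to 26.7% and 7.08% to 9.46%. The resting Slc16a3 shares, at most 0.660% in CD4 cells, lay below that level. The resting Slc16a1 shares of 5.76% and 4.61% in WT CD4 cells lay within or below it, so that a share of cells alone does not tell resting Slc16a1 from it. As levels, resting WT CD4 cells held 20.8 and 23.7 CPM of Cd8b1, against 1040 and 1060 CPM in resting WT CD8 cells, while Slc16a1 was at 14.9 and 11.1 CPM in the former and at 20.9 and 28.6 CPM in the latter. Median depths per library are 14464 to 24652 UMIs for stimulated and 7055 to 8626.5 UMIs for resting CD4 cells.

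The make-up of the stimulated cells moved with the genotype. Cells with at least 10% of their UMIs on the 13 mitochondrially encoded genes made up 60.9% and 59.0% of stimulated WT CD4 cells but 13.1% and 9.97% of SDHA-KO CD4 cells. Among CD8 cells they made up 75.7% and 70.7% of WT and 35.0% and 35.9% of SDHA-KO cells. In the stimulated CD4 Tem subset, whose median mitochondrial share was 1.31% to 2.90%, cells held a median of 60983 and 61520 UMIs in WT and 28229 and 28380 in SDHA-KO. In the Tcm subset, at 11.1% to 21.8%, they held 10849 and 10875 UMIs in WT and 6871.5 and 7418 in SDHA-KO. All 4 transporter genes had a higher raw CPM in the cells at or over 10% in each stimulated library and class. In WT CD4 cells, for example, Slc2a3 was at 646.6 and 687.8 in these cells and at 247.3 and 275.1 in the others. Per cell the order was the opposite for each gene in each stimulated library and class. Slc2a3 was at 7.83 and 8.28 UMIs per WT CD4 cell at or over 10% and at 13.9 and 15.4 under 10%, and Slc16a3 at 3.63 and 3.64 against 8.66 and 7.89. In SDHA-KO CD4 cells the values were 0.839 and 0.531 against 1.18 and 0.966 UMIs of Slc2a3, and 1.09 and 1.26 against 1.10 and 1.49 UMIs of Slc16a1.

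The fits were therefore repeated within each part. In CD4 cells under 10% the SDHA-KO over WT log2 fold change was -2.96 ± 0.12 for Slc2a3, -1.36 ± 0.12 for Slc2a1, -1.70 ± 0.19 for Slc16a3, and -0.39 ± 0.13 for Slc16a1. In CD4 cells at or over 10% it was -2.99 ± 0.17 for Slc2a3, -0.74 ± 0.15 for Slc2a1, -0.91 ± 0.20 for Slc16a3, and -0.06 ± 0.11 for Slc16a1. Slc2a3 was thus about as low in SDHA-KO cells within each part as over all CD4 cells, whereas the difference in Slc16a1 was near 0 in the second part. In CD8 cells the values under 10% were -2.11 ± 0.16 for Slc2a3, -0.91 ± 0.11 for Slc2a1, -1.34 ± 0.24 for Slc16a3, and 0.16 ± 0.10 for Slc16a1. At or over 10% they were -2.26 ± 0.17, -0.98 ± 0.12, -1.30 ± 0.28, and 0.42 ± 0.12 in the same order. Slc16a1 in stimulated SDHA-KO CD8 cells thus turned from the WT level over all cells to above it within each part, with 68.3 and 71.0 raw CPM against 57.7 and 59.7 under 10%, and 210.7 and 264.6 against 169.4 and 167.8 at or over 10%. This split leaves in place the CD8 cells with a Trdc UMI, which were more common in SDHA-KO. In CD8 cells without a Trdc UMI, not split at 10%, Slc16a1 was at 68.75 and 77.43 raw CPM in SDHA-KO against 103.9 and 96.75 in WT.

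**Figure D2:**
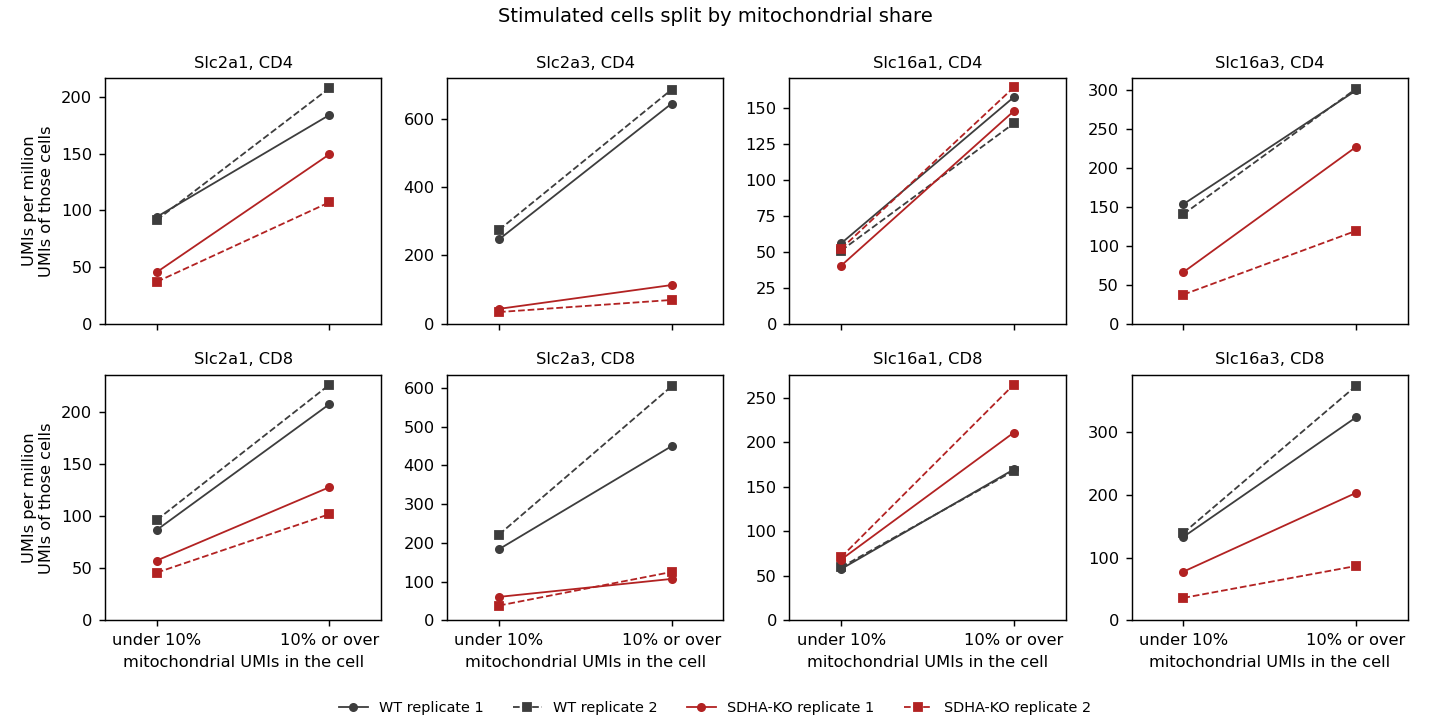
Raw CPM of each gene in stimulated cells with under 10% and with 10% or more mitochondrial UMIs, for each WT (dark) and SDHA-KO (red) library, CD4 cells above and CD8 cells below. Each line rises from left to right, the SDHA-KO values of Slc2a3, 33.7 to 124.9, lie below all its WT values, and those of Slc16a1 in CD8 cells lie above the WT values of the same cells.

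**Figure D3:**
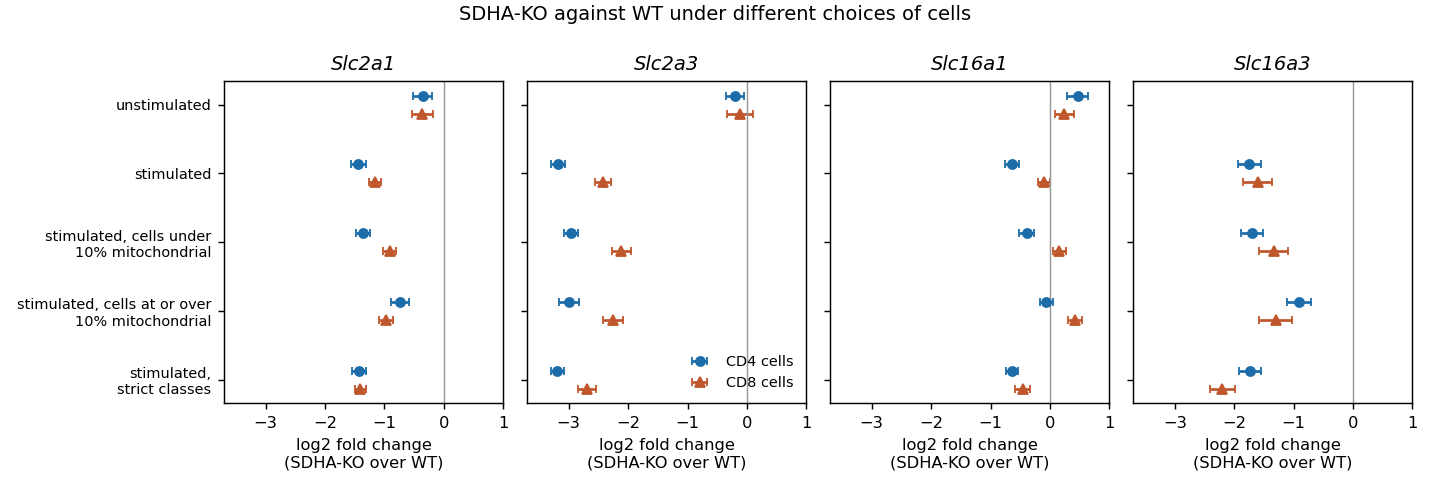
SDHA-KO over WT log2 fold change ± SE of each gene in unstimulated and stimulated cells, in stimulated cells split at 10% mitochondrial UMIs, and in strictly defined classes (CD4 circles, CD8 triangles). Slc2a3 stays at or below -2.11 under every choice of stimulated cells, Slc16a1 in CD8 cells runs from -0.46 to 0.42, and unstimulated Slc16a3 is left out for its low counts.

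The deposited clusters gave a finer division. In CD4 cells 8 clusters and in CD8 cells 4 clusters had at least 20 cells in each of the 4 stimulated libraries. Slc2a3 was lower in both SDHA-KO libraries than in both WT libraries in 8 of 8 CD4 clusters and 4 of 4 CD8 clusters, and so were Slc2a1 and Slc16a3. The mean WT level of Slc2a3 was 6.20 to 8.41 times the SDHA-KO level in the CD4 clusters and 3.26 to 7.33 times in the CD8 clusters. For Slc2a1 the range was 1.44 to 2.49 times in CD4 and 1.47 to 3.58 times in CD8 clusters, and for Slc16a3 1.85 to 3.73 times and 2.21 to 3.43 times. Slc16a1 was lower without overlap in 2 of 8 CD4 clusters and higher in 1, and higher in 3 of 4 CD8 clusters. As background, of all pairs of a tested gene and a CD4 cluster 19.5% were lower and 37.5% higher without overlap. For the CD8 clusters 28.5% were lower and 28.6% higher. These values describe the contrast that chose the genes and are not independent of it, and cells of all clusters come from the same libraries.

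Among the 8 CD4 clusters Slc2a3 was highest in Tcm4 in stimulated WT cells, at 705.0 and 843.8 raw CPM, against 155.3 and 188.4 in Tem3. Tcm5, which had too few SDHA-KO cells to be among the 8, held 769.7 and 874.2 raw CPM in its 44 and 45 WT cells. In SDHA-KO cells the same clusters held 139.8 and 94.1, and 29.5 and 24.5 raw CPM. On raw CPM the order of Tcm4 above Tem3 was thus kept in SDHA-KO cells at a lower level. Per cell these clusters lay close, since Tem3 cells held more UMIs. WT cells held 11.8 and 14.1 UMIs of Slc2a3 in Tcm4 and 11 and 13.6 in Tem3. SDHA-KO cells held 1.73 and 1.33 in Tcm4 and 1.29 and 1.09 in Tem3. WT Tem2 held more per cell than either, at 21.9 and 22.4. In Tem7, a CD4 cluster with 63 WT and 196 SDHA-KO cells, Slc16a3 was at 304.2 and 180.8 in WT against 144.7 and 98.7 in SDHA-KO, while Slc16a1 overlapped, at 41.8 and 20.9 against 28.2 and 25.4.

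**Figure D4:**
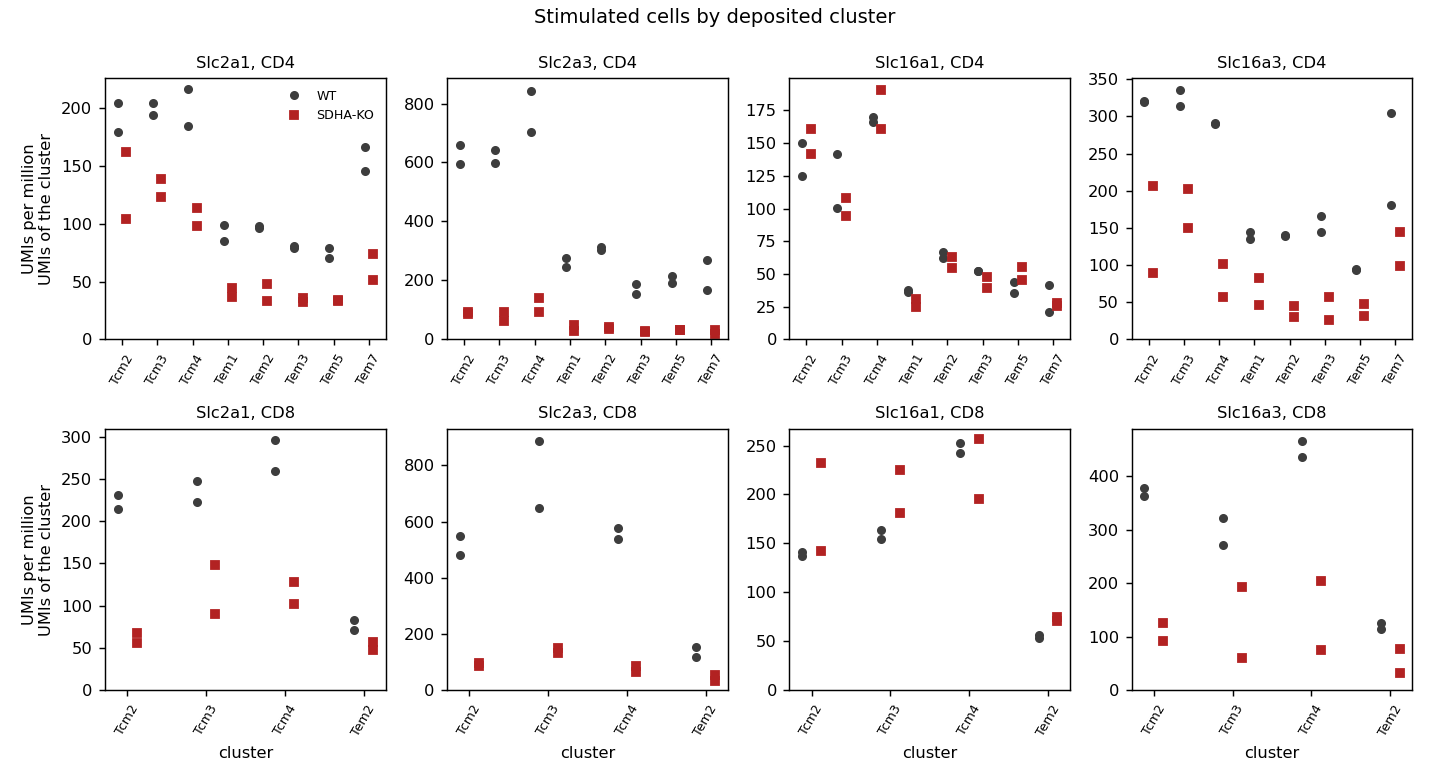
Raw CPM of each gene in the stimulated clusters with enough cells, with 2 WT (dark circles) and 2 SDHA-KO (red squares) libraries, CD4 clusters above and CD8 clusters below. The symbols for Slc2a3 do not overlap in any of the 8 CD4 or 4 CD8 clusters, whereas those for Slc16a1 overlap in 5 of 8 CD4 and 1 of 4 CD8 clusters.

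The balance within each pair was followed as the share of Slc2a3 in the UMIs of Slc2a1 and Slc2a3, and of Slc16a3 in those of Slc16a1 and Slc16a3. These shares compare libraries, not molecules of different genes, since capture at the 3′ end differs between genes. Slc2a3 made up 50.4% and 45.4% of its pair in resting WT CD4 cells and 74.9% and 75.8% in stimulated WT CD4 cells. In SDHA-KO CD4 cells it made up 55.0% and 46.1% at rest and 48.1% and 47.2% after stimulation (95% Wilson intervals 46.2% to 50.0% and 45.3% to 49.2% after stimulation, counting error only). The CD8 values were 48.4% and 51.9% at rest and 68.2% and 71.4% after stimulation in WT, and 57.1% and 52.2% and then 50.1% and 47.9% in SDHA-KO. The share of Slc2a3 thus moved up with stimulation in WT cells and stayed within or below its resting range in SDHA-KO cells. Slc16a3 made up 70.1% and 71.4% of its pair in stimulated WT CD4 cells and 62.0% and 41.8% in SDHA-KO CD4 cells, and 67.2% and 69.4% against 52.1% and 31.0% in CD8 cells. Both SDHA-KO shares of Slc16a3 were below both WT shares in each class, and the SDHA-KO libraries lay further apart than the WT libraries.

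**Figure D5:**
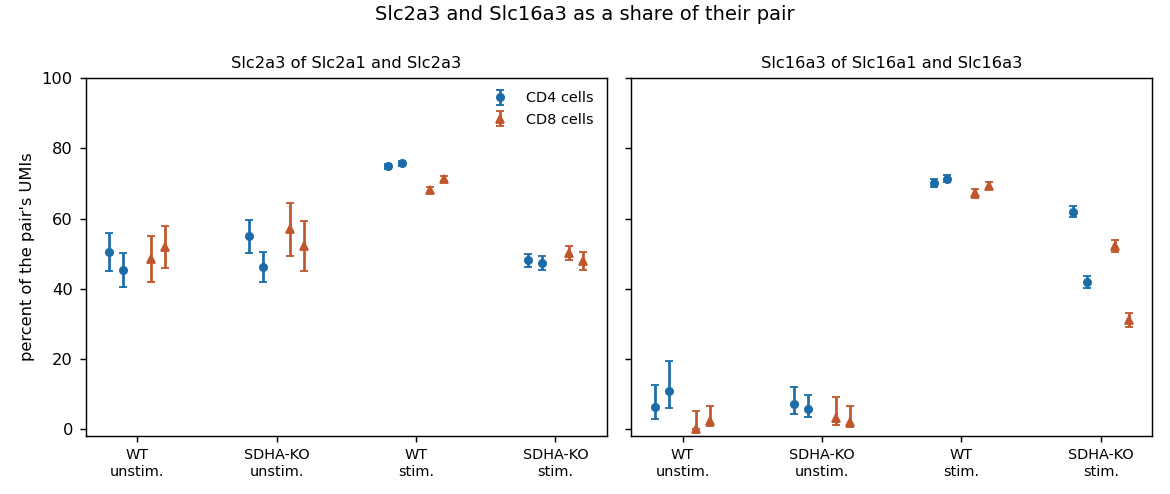
Percent of the summed UMIs of Slc2a1 and Slc2a3 that belong to Slc2a3 (left) and of Slc16a1 and Slc16a3 that belong to Slc16a3 (right) in each library, with 95% Wilson intervals that cover counting error only (CD4 circles, CD8 triangles). Stimulated WT libraries lie at 68.2% to 75.8% for Slc2a3, and the SDHA-KO libraries at 47.2% to 50.1%.

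The SDHA-KO effect in the 2 classes was set side by side in a fit over both class sums of each stimulated library, blocking on library. No p is given for the 4 genes, since they were chosen on these stimulated levels. The SDHA-KO over WT log2 fold change was 0.74 ± 0.08 less negative in CD8 than in CD4 cells for Slc2a3 and 0.26 ± 0.07 less negative for Slc2a1. For Slc16a1 the difference was 0.53 ± 0.08, and for Slc16a3 it was 0.08 ± 0.10. Of all 14617 genes tested for this difference, edgeR called 22.4%.

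The CD8 class itself changed in make-up. Trdc, the constant segment of the T cell receptor delta chain, was seen in 59.1% and 56.1% of stimulated SDHA-KO CD8 cells but in 3.67% and 4.92% of stimulated WT CD8 cells. The 6 markers of gamma-delta T cells summed to 226 and 236 CPM in these SDHA-KO libraries and to 15.3 and 18.4 CPM in the WT libraries, with Trdv4 at 0 in 1 WT library. Cd8b1 was at 110.0 and 139.8 CPM against 248.2 and 275.4 CPM. In stimulated SDHA-KO CD8 cells with a Trdc UMI, Slc2a3 was at 71.8 and 56.1 raw CPM, and in those without at 56.5 and 35.8. Slc16a1 was at 94.6 and 102.8 with a Trdc UMI and at 68.8 and 77.4 without. SDHA-KO cells with a Trdc UMI thus held more of both transcripts in each library, and both parts stayed far below the WT level of Slc2a3. The median mitochondrial share was also higher in those with a Trdc UMI (6.8% and 5.87%) than without (2.41% and 2.31%). On raw CPM the order was the opposite in stimulated WT CD8 cells. There Slc2a3 was at 232.6 and 285.4 with a Trdc UMI (31 and 41 cells) and at 292.4 and 354.9 without. WT Slc16a1 was at 67.35 and 88.26 with and at 103.9 and 96.75 without. In strict classes (CD8 cells with a Cd8a or Cd8b1 UMI and no Cd4 or Trdc UMI, and the reverse for CD4), the CD8 log2 fold change was -2.69 ± 0.15 for Slc2a3, -1.41 ± 0.09 for Slc2a1, -0.46 ± 0.12 for Slc16a1, and -2.20 ± 0.21 for Slc16a3. The CD8 minus CD4 difference then was 0.50 ± 0.13 for Slc2a3, 0.04 ± 0.11 for Slc2a1, 0.20 ± 0.09 for Slc16a1, and -0.50 ± 0.13 for Slc16a3. The difference of Slc2a3 thus kept its direction, and that of Slc16a3 changed sign. B cell markers summed to 306 CPM in SDHA-KO replicate 1 and 57.8 CPM in replicate 2 of stimulated CD8 cells against 45.5 and 43.4 CPM in WT, and their part in the result was not tested.

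The scale also mattered for CD8 cells, because SDHA-KO CD8 cells held more UMIs per cell (36973 and 36824 on average, against 24784 and 26752 in WT). Per cell, Slc16a1 was at 3.14 and 3.41 UMIs in stimulated SDHA-KO CD8 cells and at 2.53 and 2.57 UMIs in WT, 1.28 times higher where CPM gave a ratio of 0.933. Slc2a3 was at 2.44 and 1.77 UMIs per SDHA-KO CD8 cell against 7.18 and 9.38 per WT cell, and at 1.14 and 0.923 against 10.2 and 11.2 in CD4 cells. For Slc2a3 each scale thus gave a lower level in SDHA-KO cells.

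The genes around these transporters were followed as lists. These lists were chosen with earlier results of these data known, so their counts and p values are not independent of those results. Of 18 glycolytic genes, 17 passed the count filter, and in WT CD4 cells 16 of them rose and 1 fell on stimulation (median log2 fold change 2.90, against 0.08 for all genes, of which 36.2% rose and 30.1% fell). Hk2, which traps glucose as glucose 6-phosphate, went from 2.08 and 3.75 to 182.3 and 178.9 CPM, and Ldha, the muscle-type lactate dehydrogenase subunit, from 226.6 and 197.6 to 1540 and 1635 CPM (adjusted p = 7.0e-10 and 4.7e-10). Bsg, the chaperone that brings MCT1 and MCT4 to the membrane, rose from 84.0 and 83.2 to 575.2 and 588.6 CPM (log2 2.80 ± 0.08, adjusted p = 2.4e-10), while Emb, a related chaperone, fell from 268.7 and 283.3 to 95.3 and 94.0 CPM (log2 -1.54 ± 0.08, adjusted p = 1.5e-08). Txnip, which promotes the removal of GLUT1 from the membrane, fell the most of all listed genes in both classes and genotypes, in WT CD4 cells from 192.6 and 228.2 to 24.7 and 23.4 CPM (log2 -3.13 ± 0.09, adjusted p = 3.5e-10). Slc2a6, of the glucose transporter family, had the largest fitted rise in both classes and genotypes. It had 0 UMIs in both resting WT CD4 libraries and reached 4.16 and 6.39 CPM. Of 23 other listed transporter genes, 10 passed the filter in CD4 cells, and 5 of them rose and 2 fell, close to the 66.3% of all genes called. In WT CD8 cells 16 glycolytic genes rose (median 2.58, against 35.5% of all genes that rose) and Bsg rose by 2.56 ± 0.09 on the log2 scale (adjusted p = 1.1e-09).

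Between unstimulated SDHA-KO and WT cells the lowest adjusted p of the listed genes was 0.0571 in CD4 and 0.0875 in CD8 cells (edgeR). Without adjustment 6 of 35 listed genes in CD4 cells and 5 of 36 in CD8 cells would pass at 0.05. Of all genes tested, 2282 of 14264 in CD4 and 1852 of 13095 in CD8 cells would pass, a similar share. In stimulated CD4 cells 15 glycolytic genes were lower and 2 higher in SDHA-KO (median log2 -0.74, against -0.001 for all genes, of which 20.5% were lower and 22.7% higher), and in CD8 cells 13 were lower and 2 higher (median -0.34, against 23.5% of all genes lower and 26.8% higher). Hk2 was at 77.7 and 60.1 CPM in SDHA-KO against 182.3 and 178.9 CPM in WT CD4 cells (log2 -1.39 ± 0.11, adjusted p = 6.4e-06), and its fall in CD8 cells was smaller (log2 -0.62 ± 0.11, adjusted p = 0.000737, and 0.75 ± 0.06 for the difference between classes, adjusted p = 0.000484). Ldha fell in CD4 cells (log2 -0.46 ± 0.08, adjusted p = 0.00111) but in CD8 cells was at 1488 and 1324 CPM against 1281 and 1464 CPM (log2 0.03 ± 0.08, adjusted p = 0.749). Aldoc, an aldolase isoform, had the largest fall of the list, from 26.5 and 31.1 to 3.74 and 3.03 CPM in CD4 cells (log2 -3.09 ± 0.15, adjusted p = 1.7e-07) and from 11.9 and 15.5 to 1.32 and 0.743 CPM in CD8 cells (log2 -3.68 ± 0.28, adjusted p = 2.6e-06). Ldhb, the heart-type lactate dehydrogenase subunit, had the largest rise in CD4 cells, from 27.4 and 28.0 to 64.1 and 77.9 CPM (log2 1.36 ± 0.10, adjusted p = 2.5e-06). In CD8 cells the largest rise was that of Slc16a11, from 0.284 and 0.662 to 1.36 and 1.36 CPM (adjusted p = 0.0380).

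Bsg was lower in stimulated SDHA-KO CD4 cells (357.6 and 341.4 against 575.2 and 588.6 CPM, log2 -0.74 ± 0.07, adjusted p = 1.6e-05) and in CD8 cells (log2 -0.49 ± 0.08, adjusted p = 0.000398), and Emb was higher (log2 0.28 ± 0.08, adjusted p = 0.0113 in CD4, and 0.32 ± 0.09, adjusted p = 0.0106 in CD8). Txnip was lower in both classes (log2 -0.85 ± 0.09, adjusted p = 4.4e-05 in CD4, and -1.11 ± 0.13, adjusted p = 5.4e-05 in CD8). Mpc1 and Mpc2, which form the mitochondrial pyruvate carrier, were higher in SDHA-KO CD4 cells (132.3 and 154.5 against 98.4 and 105.3 CPM for Mpc1, log2 0.49 ± 0.10, adjusted p = 0.00255, and log2 0.80 ± 0.08, adjusted p = 2.1e-05 for Mpc2). They were also higher in SDHA-KO CD8 cells (log2 0.47 ± 0.09, adjusted p = 0.00136, and log2 0.66 ± 0.09, adjusted p = 0.00013). In stimulated CD4 cells the 4 transporter genes thus lay below and the 2 pyruvate carrier genes above their WT levels. Hif1a, which encodes an inducer of glycolytic genes under low oxygen, was higher in SDHA-KO CD4 cells (423.8 and 300.8 against 208.1 and 232.2 CPM, log2 0.72 ± 0.13, adjusted p = 0.00127), and Myc was at log2 0.26 ± 0.10 there (adjusted p = 0.0535). In the test of the difference between classes, 11 of 18 glycolytic genes were called positive and 2 negative, against 22.4% of all genes called in either direction, with Pgam1 the highest (log2 0.79 ± 0.06, adjusted p = 0.000484) and Slc2a9 the lowest of the listed genes (log2 -1.33 ± 0.19, adjusted p = 0.00303).

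Finally, the genes whose pattern over the 16 sums of library and class was most like each transporter were named, among the 5724 genes that averaged 20 CPM or more. These correlations are descriptions, since the sums share libraries and fall into stimulated and unstimulated groups. For Slc2a1 they were Camta1 (r = 0.972), Egln3 (r = 0.972), Bnip3 (r = 0.969), Nfx1 (r = 0.965), and Ero1l (r = 0.964). For Slc2a3 they were Clcn3 (r = 0.977), Abhd17b (r = 0.974), Acat2 (r = 0.973), Sars (r = 0.968), and Egln1 (r = 0.963). Slc16a1 was most like Far1 (r = 0.981), Gars (r = 0.978), Trap1 (r = 0.972), Acaca (r = 0.972), and Snhg4 (r = 0.970). For Slc16a3 they were Asns (r = 0.992), Aldoa (r = 0.991), Gapdh (r = 0.991), Zfp609 (r = 0.991), and Pkm (r = 0.989), and 3 of these are glycolytic enzymes of the list. Among the transporters the r values ran from 0.750 between Slc2a3 and Slc16a1 to 0.960 between Slc2a1 and Slc2a3.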

How the data were processed

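The authors made 10x Genomics 3′ HT v3.1 libraries, processed the reads with Cell Ranger against mm10 (per the labels' processing notes, which give no version), and merged the libraries in Seurat 4.2.0. They removed cells above 6000 (unstimulated) or 8000 (stimulated) detected genes and clusters without CD3 transcripts, and deposited the unnormalized UMI counts. A table of cells, also deposited by the authors, holds each cell's UMI and gene counts, the percent of UMIs on mitochondrially encoded genes, the log10 ratio of Cd4 to Cd8a, and the authors' class and subset. Its library names hold tr and nt, which were read as treated (stimulated) and not treated. The genes and the lists around them were chosen with earlier results of these data known.

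UMIs were summed per library and class, because cells are not replicates. A count filter (filterByExpr, edgeR 4.0.16, at least 10 counts and 15 in total) and TMM scaling preceded the quasi-likelihood test (glmQLFit, then glmQLFTest) of 4 groups over 8 sums per class (4 residual degrees of freedom), with Benjamini-Hochberg adjustment over all genes tested and a threshold of 0.05. The spread between replicates in these fits was 8.73% in CD4 and 8.24% in CD8 cells. For the class difference, 8 sums from stimulated cells were fitted with a term for each library (2 residual degrees of freedom). Shares of cells were also computed after thinning each cell to 5000 UMIs, leaving out cells with fewer (2 to 99 per library and class). Named besides the 4 genes were Bsg, Emb, Txnip, Mpc1, Mpc2, Ldha, Hk2, the listed gene with the largest called rise and fall in each comparison, and the 5 genes most like each transporter. Hif1a, Myc, Trdc, Cd8b1, and the clusters named were singled out after their values were seen. No doublet caller was run. Alternatives used DESeq2 1.42.0 and limma 3.58.1, with R 4.3.3, Python 3.11.15, numpy 2.4.6, scipy 1.17.1, pandas 2.3.3, and matplotlib 3.10.9. The tests were checked on simulated data.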

Additional observations from a re-analysis of the deposited data

Results flagged for a closer look

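In the 4 stimulated libraries the SDHA-KO over WT log2 fold change was less negative in CD8 than in CD4 cells by 0.74 for Slc2a3, by 0.53 for Slc16a1, and by 0.26 for Slc2a1, in the edgeR fit of the difference between classes with the library as a block. The genes were chosen on these stimulated levels, so these values are descriptions and no p is given. In strict classes the differences were 0.50, 0.20, and 0.04 in the same order. The share of CD8 cells with a Trdc UMI was 59.1% and 56.1% in SDHA-KO against 3.67% and 4.92% in WT. The level of Sdha, scaled within each class, was 53.2 and 50.4 CPM in SDHA-KO CD8 cells. In SDHA-KO CD4 cells Sdha was at 26.5 and 26.4 CPM. The Trdc share and the Sdha level moved with the class, and their part in the result was not tested beyond the strict classes. Groups of 2 libraries are too small for a test of single outlying libraries.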

How the results depend on the processing

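The 4 transporter genes gave 675 values under other choices of cells, scaling, filter, tool, and libraries. Of these, 645 kept their direction and side of the threshold, among them every value between stimulated and unstimulated cells and every value of Slc2a1, Slc2a3, and Slc16a3 between stimulated SDHA-KO and WT cells. Since the genes were chosen on their stimulated levels, this describes how the values depend on the choices and is no independent test of the genes. The rest follow, and the cause was not tested. Settings for cells at or over 10% mitochondrial UMIs and without mitochondrially encoded genes were chosen after seeing the data. Precision is limited by 2 libraries per group, and resting Slc16a3 had only 3 to 24 UMIs per group.

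Between unstimulated SDHA-KO and WT CD4 cells 157 genes were called, against 643 without a filter, 253 thinned to the smallest total, 445 with only the 4 compared libraries, 287 by DESeq2, and 18 to 263 with 1 library left out (18 without WT unstimulated replicate 1). In CD8 cells 124 genes were called, against 225 without a filter, 219 in strict classes, 278 thinned, 338 with only the 4 compared libraries, 266 by DESeq2, 353 by limma, and 10 to 172 with 1 library left out (10 without WT unstimulated replicate 2). Between stimulated cells 2106 genes in CD4 and 3342 in CD8 were called at or over 10% mitochondrial UMIs, and 4020 to 6234 in CD4 with 1 library left out (4020 without WT stimulated replicate 1). For the class difference 3270 genes were called, against 659 at or over 10%, 1430 in strict classes, 1484 by DESeq2, and 1727 to 3055 with 1 library left out (1727 without WT stimulated replicate 1).

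Slc16a3 between unstimulated CD4 cells changed from 0.06 to -0.30 in strict classes, -0.05 thinned, and -0.14 to 0.34 with 1 library left out (-0.14 without WT and -0.03 without SDHA-KO replicate 1), and could not be fitted in CD8 cells with only the 4 compared libraries. Slc2a3 between unstimulated CD8 cells was 0.02 without composition normalization and 0.00 by limma. Slc16a1 between stimulated cells was -0.06 in CD4 at or over 10%, and in CD8 0.16 under 10%, 0.42 at or over 10%, and -0.46 in strict classes. Per cell, its CD8 ratio was 1.28. The class difference of Slc2a1 was 0.19 without composition normalization, -0.26 at or over 10%, 0.04 in strict classes, 0.28 by DESeq2, 0.01 by limma, and 0.24 to 0.29 with 1 library left out. That of Slc2a3 was 0.73 and that of Slc16a1 0.46 at or over 10%, and that of Slc16a1 0.20 in strict classes. That of Slc16a3 was -0.43 at or over 10%, -0.50 in strict classes, -0.05 by limma, and -0.07 to 0.20 with 1 library left out (-0.07 without SDHA-KO and -0.00 without WT stimulated replicate 1).

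Deviations of same-numbered libraries correlated at -0.13 to 0.165, so no pairing by replicate number was seen. Such correlations cannot exclude a shared mouse or batch with a small effect. A replicate block left every call of the 4 genes within a class as it was. Since the genes were chosen on their stimulated levels, this is no independent test of them. In place of the library block, a replicate block gave class differences of 0.26 for Slc2a1, 0.74 for Slc2a3, and 0.52 for Slc16a1, and 1902 genes called.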
